A study of Mus musculus with 29 samples.

Results

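The genes described here are 40 genes whose products copy DNA or make its building blocks: the subunits of the replicative helicase, the factors that license and fire origins, the DNA polymerases and primase, the sliding clamp and its loader, the single-strand binding protein RPA, the enzymes that finish Okazaki fragments, and enzymes of deoxynucleotide synthesis. They were taken by gene symbol from the expression table, which lists 30025 genes, and the origin recognition complex was left out. All 40 were in the table, and 39 of them passed the expression filter (at least 1 FPKM, fragment counts scaled to exon length and library size, in at least 4 libraries), as did 15409 genes in all. The exception was Fen1.

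The study deleted a stretch of mouse chromosome band 5A3 that matches part of human 7q22, a region often lost in myeloid cancers, and profiled blood stem and progenitor cells by RNA-Seq. Cells came from 10 C57BL/6J mice aged 12.42 to 13.85 weeks: 5 wild-type mice (WT; genotype WT/WT) and 5 mice heterozygous for the deletion (5A3+/del; genotype WT/DEL). From each mouse up to 3 populations were sorted as c-Kit+ lineage- Sca-1+ CD41- CD48- bone marrow cells and split by CD150: CD150hi HSC, CD150lo HSC and CD150neg MPP (multipotent progenitors, which the sample labels call CD150neg HSC). Each group had 5 mice except 5A3+/del CD150neg MPP with 4, giving 29 libraries. The deletion was made in embryonic stem cells by Cre recombination between loxP sites placed at Fbxl13 and Srpk2, is present in every cell of the mouse, and was bred onto C57BL/6J; WT littermates were the controls. RNA was amplified before library preparation, and 1 library is 1 population of 1 mouse.

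A cell licenses an origin of replication by loading the MCM2-7 helicase with the help of Cdc6 and Cdt1, while geminin (Gmnn) blocks Cdt1 so that no origin is loaded again in the same cycle. The kinase Cdc7 with its partner Dbf4, together with Cdc45, the GINS complex and Mcm10, turns the loaded helicase into a moving fork. Behind it, polymerase alpha with primase starts each strand, RFC loads the PCNA clamp, polymerases delta and epsilon extend, and Fen1 and DNA ligase 1 join the lagging-strand pieces. Ribonucleotide reductase (Rrm1, Rrm2), thymidylate synthase (Tyms) and thymidine kinase (Tk1) supply deoxynucleotides. Most adult HSC are quiescent, and many of these genes are E2F targets transcribed around the G1 to S transition.

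Libraries held 21229623 to 38797889 fragments assigned to genes, as recovered from the steps of the FPKM values. The 7 deleted genes on a check list had a median level of 52.6%, 52.2% and 46.4% of WT in CD150hi HSC, CD150lo HSC and CD150neg MPP, and Orc5, a replication gene inside the deletion, was at 45.9%, 39.9% and 45.8%. Slamf1, which encodes CD150, followed the labels and differed by -3.75 on the log2 scale between WT CD150neg MPP and CD150hi HSC. Other sort markers differed too, at a limma adjusted p under 0.05. Cd48, although cells were sorted as CD48-, was higher in MPP than in CD150hi HSC by 2.37 in WT and 2.13 in 5A3+/del mice. Itga2b, which encodes CD41, differed by -0.78 there in 5A3+/del mice. Ly6a, which encodes Sca-1, was higher in 5A3+/del mice by 0.52 averaged over populations. Summed FPKM of 8 granulocyte and monocyte markers ran from 37.9 to 161 in 5A3+/del CD150hi HSC and from 68.5 to 799.6 in WT CD150hi HSC, and Ly6g was at 0 in all 5 of the former. Ly6g was also at 0 in every library of WT CD150neg MPP and of 5A3+/del CD150lo HSC. WT mouse 3 stood apart in Xist, with 234 to 319 FPKM against at most 0.470 in the other 26 libraries; the labels give no sex. The 5A3+/del CD150hi HSC library of mouse 1 had the fewest genes above 0, 17346 against 17504 to 23588 elsewhere, and 15 of the 39 members had their lowest value of all 29 libraries there. In the same library Pole2 and Tyms had their highest. Lowest and highest values were not counted over all genes tested, so whether other genes do the same there is not known.

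RNA of the 39 tested members was present in all 6 groups, and their levels spanned 46.3-fold from the highest to the lowest mean. Values are normalized FPKM (quantile normalized across libraries, 2 raised to the log2 value minus 1), scaled to the length of all annotated exons of a gene. That length ran from 1136 bases for Rpa3 to 9590 for Pole and need not be the length of the transcript made. Orders between different genes describe this scale, and the part of exon length in them was not tested. The median member averaged 7.24 normalized FPKM over the 29 libraries, against 5.91 for the median gene tested. Members above the median gene numbered 28, and 33 were at 1 or more in every library. The median spread within groups, an SD of 0.32 on the log2 scale, was close to that of all genes tested, 0.33. In these bulk samples fewer cells of a type and less RNA per cell cannot be told apart.

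**Figure D1:**
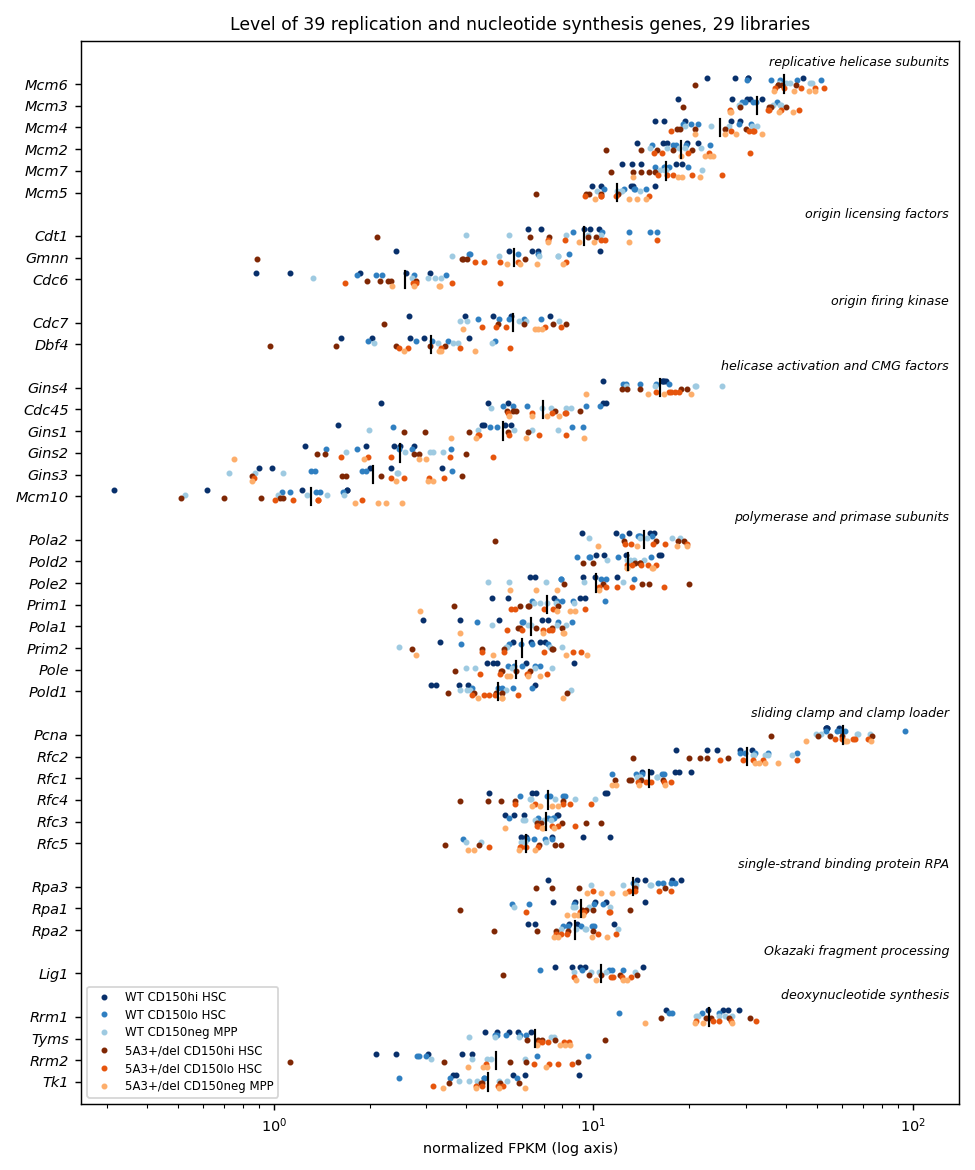
Normalized FPKM (log axis) of the 39 tested members, grouped by role, in 29 libraries; points are libraries coloured by group and black bars mark the mean over all libraries. Pcna lies highest at a mean of 60.4 and Mcm10 lowest at 1.30, and the 6 groups overlap along nearly every row.

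The 6 helicase subunits, which form 1 ring, differed in RNA level. Mcm6 was highest with a mean of 39.7, followed by Mcm3 at 32.6, Mcm4 at 24.9, Mcm2 at 18.8, Mcm7 at 16.9 and Mcm5 at 11.9 normalized FPKM, a 3.33-fold range. Mcm6 was the highest of the 6 in 25 of 29 libraries and Mcm5 the lowest in 27. Mcm2 and Mcm7 were the neighbours least apart, with Mcm2 higher in 19 of 29 libraries, and each other neighbouring pair kept its order in 26 or 27. In Mcm7, 7.25% of the exon bases are shared with Ap4m1 on the opposite strand, and the library kit does not mark strand.

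Among the licensing factors Cdt1, which loads the helicase, averaged 9.36 normalized FPKM, its inhibitor Gmnn 5.67 and the loading ATPase Cdc6 2.57. Cdt1 exceeded Gmnn in 26 of 29 libraries and Gmnn exceeded Cdc6 in 27. The firing kinase Cdc7 averaged 5.61 and its activating subunit Dbf4 3.10. Of the GINS subunits Gins4 was highest in 29 of 29 libraries, with a mean of 16.2 against 5.22 for Gins1, 2.48 for Gins2 and 2.04 for Gins3. Gins2 exceeded Gins3 in only 17 libraries, and 67.3% of the exon bases of Gins2 overlap Gse1 on the opposite strand, so reads of the pair cannot be told apart without strand. Cdc45, which joins GINS on the helicase, averaged 6.99, and Mcm10, the scaffold that activates it, was the least abundant tested member at 1.30, resting on 13 to 513 fragments per library.

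Pcna, the sliding clamp, was the most abundant member, with a mean of 60.4 normalized FPKM and a range of 36.1 to 94.9. Of the 5 loader subunits Rfc2 was far above the others at 30.2 and highest in 28 of 29 libraries. The large subunit Rfc1 followed at 14.9, and Rfc4, Rfc3 and Rfc5 at 7.24, 7.09 and 6.18; Rfc4 exceeded Rfc3 in only 15 libraries. In each replicative polymerase an accessory subunit was above the catalytic one: Pola2 at 14.4 against Pola1 at 6.40, Pold2 at 12.9 against Pold1 at 5.03, and Pole2 at 10.2 against Pole at 5.75. Pold2 exceeded Pold1 in 29 of 29 libraries and Pole2 exceeded Pole in 28. In each pair the accessory gene also has the shorter exon length. Pola2 has 2872 bases against 8813, Pold2 1896 against 4860 and Pole2 1695 against 9590, and the part of length was not tested. The primase subunits Prim1 and Prim2 averaged 7.16 and 6.00, and RPA subunits Rpa3, Rpa1 and Rpa2 averaged 13.3, 9.15 and 8.79. Exon bases are shared with opposite-strand genes in Rfc4 (12.6%, Eif4a2), Rfc5 (10.7%, Wsb2) and Cdc45 (9.28%, Ufd1l).

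Of the lagging-strand enzymes Lig1, the ligase, averaged 10.6 normalized FPKM. Fen1, the flap nuclease, was at 0 to 0.669 FPKM as deposited, with 0 to 50 fragments per library. In the mm9 annotation 78.8% of the exon bases of Fen1 (1909 of 2422) are shared with Gm10143 on the opposite strand; whether that sets its low value was not tested. Rrm1, the large subunit of ribonucleotide reductase, exceeded the small S-phase subunit Rrm2 in 29 of 29 libraries, at means of 23.0 and 4.96. Tyms averaged 6.59 and Tk1, the salvage kinase, 4.70. Rrm2 was among the most variable members, with a within-group SD of 0.52 on the log2 scale against 0.18 for Rfc1, the steadiest.

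RefSeq promoters (GRCm38.p6) were found for 32 of the 40 members, with 38 transcription starts. The 250 bases before the start were searched on both strands for the E2F words TTTCCCGC, TTTCGCGC, TTTGCCGC and TTTGGCGC, for CCAAT and for the GC box GGGCGG; matches of different words may overlap. An E2F word was present at 7 of 38 member starts, 18.4%, against 1.86% of all 32841 promoters searched. CCAAT was present at 52.6% of member starts against 33.9% of all, and the GC box at 63.2% against 32.7%. The E2F words lay at Mcm5, Mcm6, Mcm7, Cdc6, Gins3, Pola1 and Rfc3. Their mean levels ran from 2.04 for Gins3 to 39.7 for Mcm6 normalized FPKM with a median of 7.09, and those of the 24 tested members with a promoter and no E2F word from 1.30 to 60.4 with a median of 8.97. The 150 bases before the start are shown for 3 genes with an E2F word, in capitals, and for Mcm10 and Tyms, to which the comparisons below return and which have none in the window; Rfc2 was not in the promoter table. Mcm6 is shown since it is the most abundant helicase subunit and Gins3 since it is the least abundant GINS subunit; Rfc3 has its word closest to the start.
Mcm6: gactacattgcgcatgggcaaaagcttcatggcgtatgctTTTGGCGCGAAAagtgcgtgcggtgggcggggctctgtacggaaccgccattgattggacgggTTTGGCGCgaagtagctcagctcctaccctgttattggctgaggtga
Gins3: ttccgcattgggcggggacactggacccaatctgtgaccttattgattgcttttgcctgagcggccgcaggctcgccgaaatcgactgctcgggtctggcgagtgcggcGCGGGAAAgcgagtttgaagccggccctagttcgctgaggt
Rfc3: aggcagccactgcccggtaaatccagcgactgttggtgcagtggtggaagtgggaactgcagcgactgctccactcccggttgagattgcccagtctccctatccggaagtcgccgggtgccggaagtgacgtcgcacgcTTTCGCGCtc
Mcm10: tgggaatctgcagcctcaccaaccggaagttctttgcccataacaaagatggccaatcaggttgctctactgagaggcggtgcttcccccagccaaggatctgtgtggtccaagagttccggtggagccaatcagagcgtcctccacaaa
Tyms: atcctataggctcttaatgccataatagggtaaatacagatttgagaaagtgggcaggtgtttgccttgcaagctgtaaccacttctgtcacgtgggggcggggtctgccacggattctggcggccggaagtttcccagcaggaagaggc
These windows, all 5′ to 3′ on the gene's strand, lie at chr1:128359706-128359855 (minus strand), chr8:95633409-95633558 (plus), chr5:151651209-151651358 (minus), chr2:5012792-5012941 (minus) and chr5:30073626-30073775 (minus) of GRCm38.p6. Mcm6 has 3 matches, of which the one nearest the start lies 47 to 40 bases before it and the other two overlap each other at 110 to 99 bases. Gins3 has its match at 41 to 34 bases and Rfc3 at 10 to 3 bases before the start. A match of letters is a description of the window and says nothing of binding.

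Mcm2, Pcna and Rrm2, often read as proliferation genes, were followed in every library. In WT CD150hi HSC Mcm2 was at 19.7, 16.5, 21.2, 13.8 and 17.0 normalized FPKM, in WT CD150lo HSC at 15.2, 19.5, 23.2, 17.8 and 18.2, and in WT CD150neg MPP at 15.1, 17.1, 21.8, 19.3 and 18.5. These 3 groups overlapped. In 5A3+/del mice Mcm2 was at 11.0, 20.4, 15.8, 17.7 and 14.1 in the CD150hi HSC group, 16.4, 30.9, 15.5, 23.0 and 19.8 in the CD150lo HSC group and 18.9, 23.6, 23.3 and 22.3 in the MPP group. Mouse 1 was lowest and mouse 2 highest in the 5A3+/del CD150hi HSC. The largest Mcm2 difference, 5A3+/del CD150neg MPP minus CD150hi HSC, was 0.48 on the log2 scale (SE 0.18, limma adjusted p = 0.132).

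Pcna was at 53.8, 53.5, 58.7, 53.5 and 53.7 normalized FPKM in WT CD150hi HSC, 53.5, 58.0, 94.9, 59.8 and 61.2 in WT CD150lo HSC and 67.2, 51.5, 67.0, 49.9 and 73.5 in WT CD150neg MPP. The WT CD150hi HSC values were the tightest of any group, and WT mouse 3 was highest in both HSC groups. In 5A3+/del mice it was at 36.1, 55.2, 50.7, 74.4 and 60.1 in the CD150hi HSC group, 65.2, 72.3, 60.1, 65.9 and 56.9 in the CD150lo HSC group and 46.2, 62.1, 61.5 and 74.1 in the MPP group. Its genotype differences were -0.02 in CD150hi HSC (SE 0.17) and -0.02 in CD150neg MPP (SE 0.18), within 1 SE of 0.

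Rrm2 was at 2.41, 2.08, 4.18, 3.03 and 3.90 normalized FPKM in WT CD150hi HSC, 2.85, 3.00, 9.66, 2.80 and 6.67 in WT CD150lo HSC and 3.11, 4.17, 6.13, 4.63 and 4.80 in WT CD150neg MPP. In 5A3+/del mice it was at 8.96, 1.13, 3.42, 6.15 and 5.50 in the CD150hi HSC group, 7.28, 8.61, 4.62, 7.76 and 6.53 in the CD150lo HSC group and 4.04, 4.64, 4.51 and 7.13 in the MPP group. The spread was widest in WT CD150lo HSC and 5A3+/del CD150hi HSC, the latter holding the lowest value of all 29 libraries (mouse 2). The ratio of Rrm1 to Rrm2 there ran from 1.82 in mouse 1 to 20.02 in mouse 2. The genotype difference of Rrm2 in CD150hi HSC was 0.40 on the log2 scale with an SE of 0.31, and no comparison of Rrm2 passed the test.

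**Figure D2:**
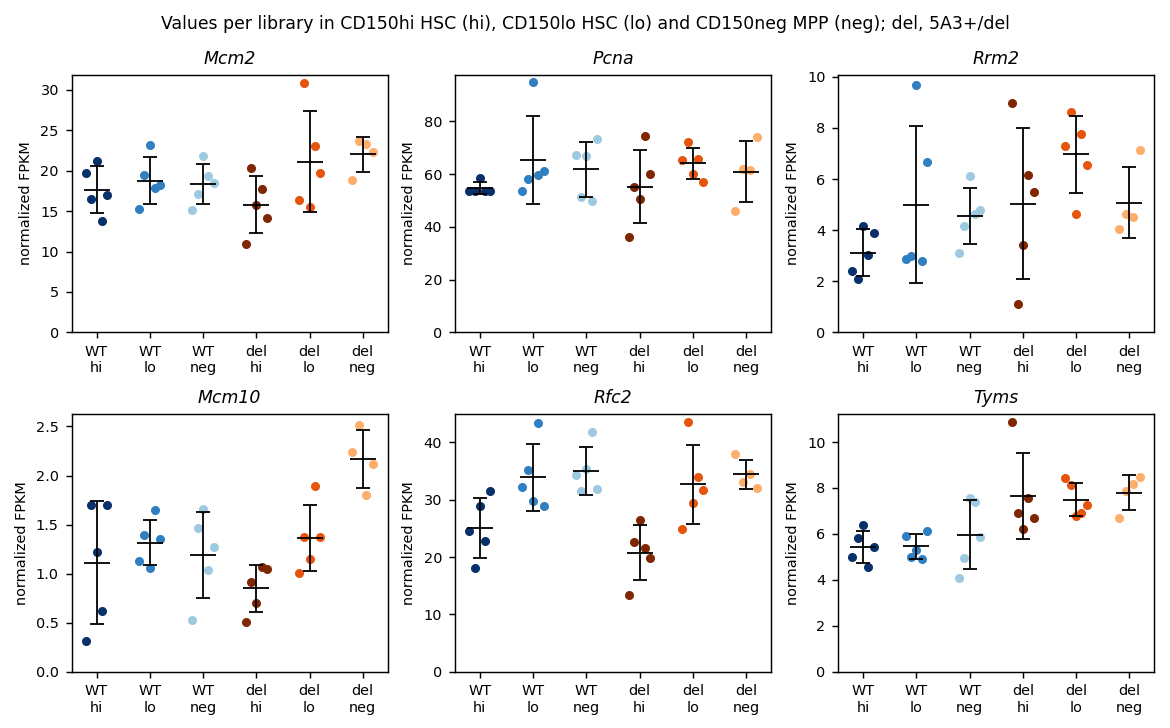
Normalized FPKM of 6 genes per library (points) with the group mean and SD (black bars), with WT in blues and 5A3+/del in browns and oranges; hi, lo and neg name the CD150 level. Mcm2, Pcna and Rrm2 overlap between groups of the same genotype or the same population. Mcm10 in 5A3+/del CD150neg MPP (1.80 to 2.52) and Rfc2 in the CD150neg MPP of both genotypes lie above the CD150hi HSC of the same genotype.

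The first question was whether replication genes differ between the WT populations as cells leave the most primitive CD150hi compartment. None of the 39 members passed the test between WT CD150neg MPP and CD150hi HSC (limma, Benjamini-Hochberg over 15409 genes, adjusted p under 0.05), whereas 10.0% of all genes did. At an unadjusted p under 0.05 there were 3 members, against 21.8% of all genes. The members' differences ran from -0.46 to 0.48 on the log2 scale with a median of 0.09, against 0.01 over all genes. They were positive in 27 of 39 members, against 50.9% of all genes. For 38 members the 95% confidence interval lay within 1 log2 unit of 0 on both sides. The summed granulocyte and monocyte markers were at a median of 323 FPKM in the CD150hi HSC and 106 in the MPP. Of the 7 tested genes of that list limma called 1, Itgam, higher in the MPP by 2.17. Of 2 tested T and NK cell genes it called 1, Nkg7, higher by 1.76. The summed level of the T and NK list was 5.39 to 12.9 FPKM in the CD150hi HSC and 21.2 to 48.9 in the MPP. The part of these markers was not tested.

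Rfc2, a small subunit of the clamp loader, had the smallest p of these. It was at 24.5, 18.1, 28.8, 22.7 and 31.5 normalized FPKM in WT CD150hi HSC, 32.2, 35.2, 29.8, 43.4 and 28.9 in WT CD150lo HSC and 34.4, 31.5, 35.3, 41.9 and 31.9 in WT CD150neg MPP. All 5 MPP values were above all 5 CD150hi values, which 8.63% of all genes also showed in 1 direction or the other. The difference was 0.48 on the log2 scale (SE 0.17, adjusted p = 0.0666; 0.0274 to 0.236 over 21 alternative settings, 5 of which called it). Mcm6, the most abundant helicase subunit, was at 27.7, 22.6, 45.3, 30.6 and 30.6 in WT CD150hi HSC and 38.2, 40.2, 47.6, 41.2 and 48.6 in MPP, where only the CD150hi value of mouse 3 reached the MPP range (difference 0.48, SE 0.18, adjusted p = 0.0964). Rfc5, another loader subunit, was at 9.32, 11.3, 5.92, 6.16 and 7.43 in WT CD150hi HSC and 5.93, 4.01, 7.11, 4.44 and 6.12 in MPP. Its high values came from mice 1 and 2, and the difference was -0.46 (SE 0.20, adjusted p = 0.173), or -0.25 without mouse 2. With the mouse as a fixed replicate block 1 member passed, Mcm6 (adjusted p = 0.0220), and without 5A3+/del mouse 1 in the fit 2 passed, Rfc2 and Mcm6.

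The steps on either side gave no called member. Between WT CD150lo and CD150hi HSC, where 3.53% of all genes were called, 0 members passed limma's test, 1 had an unadjusted p under 0.05 (14.1% of all genes), and the median difference was 0.14. Rfc2 differed by 0.43 (SE 0.17, adjusted p = 0.201), Mcm6 by 0.35 (SE 0.18, adjusted p = 0.381) and Rrm1 by -0.36 (SE 0.19, adjusted p = 0.389), or -0.19 without WT mouse 1. Of 7 tested granulocyte and monocyte genes 1, Itgam, was called higher in the WT CD150lo HSC, by 1.57. The summed median of that list was 323 FPKM in CD150hi and 206 in CD150lo HSC. Of 2 tested T and NK cell genes 1, Nkg7, was called higher, by 1.26. Of 5 tested erythroid genes limma called 0, with 3 at an unadjusted p under 0.05. The erythroid summed level was 8.24 to 13.3 FPKM in WT CD150hi and 13.6 to 30.4 in WT CD150lo HSC. The part of these 3 lists was not tested. Between WT CD150neg MPP and CD150lo HSC, where 0.188% of all genes were called, limma again called 0 members and 1 had an unadjusted p under 0.05 (8.75% of all genes). That was Cdt1, at 10.7, 12.9, 15.9, 15.1 and 8.65 normalized FPKM in WT CD150lo HSC and 5.46, 4.01, 8.19, 10.6 and 9.63 in WT CD150neg MPP. The groups overlapped, and the difference was -0.71 (SE 0.28, adjusted p = 0.440). Rrm1 was at 12.1, 17.6, 21.9, 17.3 and 24.7 in WT CD150lo HSC and 20.9, 24.8, 25.9, 21.2 and 27.2 in MPP, a difference of 0.37 (SE 0.19, adjusted p = 0.584). Gins4 was at 12.4, 17.3, 14.0, 12.7 and 15.8 in WT CD150lo HSC, against 21.0, 25.3, 20.8, 12.7 and 15.7 in MPP, a difference of 0.35 (SE 0.18, adjusted p = 0.610). Both pairs of groups overlapped.

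The same comparison within 5A3+/del mice called 2 members, both higher in CD150neg MPP than in CD150hi HSC: Mcm10 and Rfc2. The background was 6.16% of all genes, 2.93% being higher, and 7 members against 16.9% of all genes had an unadjusted p under 0.05. The median member differed by 0.15, against 0.004 over all genes, and 30 of 39 were positive, against 50.6% of all genes. Mcm10 was at 0.511, 0.914, 0.701, 1.07 and 1.05 in the CD150hi HSC group, 1.01, 1.37, 1.15, 1.89 and 1.38 in the CD150lo HSC group and 2.24, 2.52, 1.80 and 2.12 in the MPP group. The lowest MPP value, 1.80, lay above the highest CD150hi value, 1.07, a separation seen in 7.61% of all genes. Mcm10 rose by 0.78 on the log2(FPKM + 1) scale (SE 0.18, adjusted p = 0.00709). At this low level the size depended on the pseudocount, with 1.31 at a pseudocount of 0.1 and 0.42 at 3. Rfc2 was at 13.3, 22.6, 26.5, 21.6 and 19.9 in the CD150hi HSC group, 24.9, 43.5, 29.5, 34.0 and 31.6 in the CD150lo HSC group and 38.0, 33.1, 34.6 and 32.1 in the MPP group. It rose by 0.73 between CD150hi HSC and MPP (SE 0.18, adjusted p = 0.00877), with no overlap. Markers of other cells also differed here: both tested T and NK cell genes of 5 listed, Nkg7 and Cd4, were called higher, their list's summed level running from 3.27 to 17.1 FPKM in the CD150hi HSC and 32.0 to 56.8 in the MPP, with Cd3e at 0 in the former. Of 7 tested granulocyte and monocyte genes Itgam was called higher, and the summed level had a median of 52.1 FPKM (37.9 to 161) in CD150hi HSC and 131 (52.8 to 278) in MPP. Their part in the Mcm10 and Rfc2 values was not tested.

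Both calls were lost without 5A3+/del mouse 1. Without that mouse, whose CD150hi HSC library had the lowest value of both genes in its group, Mcm10 differed by 0.69 with an adjusted p of 0.0599 and Rfc2 by 0.54 with 0.0800, and 0 members were called. Without mouse 2 the adjusted p of Mcm10 was 0.0523 and Rfc2 alone was called. Over all alternatives the adjusted p of Mcm10 ran from 0.00130 to 0.0599 and that of Rfc2 from 0.00351 to 0.0853, the latter with only the groups compared in the fit. With the mouse as a fixed replicate block 3 members passed, Mcm5 (adjusted p = 0.0408) in addition. Pole2, the second subunit of polymerase epsilon, had the largest difference in the other direction, at 19.9, 14.2, 8.12, 10.7 and 14.9 in CD150hi HSC and 5.49, 6.63, 7.69 and 10.4 in MPP (difference -0.74, SE 0.25, adjusted p = 0.0774). Without 5A3+/del mouse 1, which had the highest CD150hi value, it differed by -0.47 (adjusted p = 0.477), while it passed without WT mouse 3 (0.0498) or 5A3+/del mouse 4 (0.0488).

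Between 5A3+/del CD150lo and CD150hi HSC 1 member was called, against 3.18% of all genes (1.37% higher), and 6 had an unadjusted p under 0.05 (13.3% of all genes). Rfc2 rose by 0.64 (SE 0.17, adjusted p = 0.0273). Of 7 tested granulocyte and monocyte genes 1 was called higher here (median 1.46; summed level 58.5 to 363 FPKM in CD150lo HSC), and of 2 T and NK cell genes 1 (summed level 19.8 to 43.4 FPKM). Of 5 tested erythroid genes limma called 0, with 3 at an unadjusted p under 0.05 and a median of 0.75 (summed level 5.55 to 18.4 FPKM in CD150hi and 15.7 to 33.2 in CD150lo HSC), and the part of all 3 lists was not tested. The Rfc2 groups overlapped, and the adjusted p ran from 0.0167 to 0.176 over the alternatives; the call was lost without mouse 1, 2, 4 or 5 (0.0511, 0.126, 0.0960 and 0.0989) and with only the groups compared in the fit (0.176). Mcm7 did not overlap between these groups (4.33% of all genes did not) and differed by 0.44 (SE 0.14, adjusted p = 0.105), and Rfc4 by 0.44 (SE 0.19, adjusted p = 0.277). Differences were positive in 33 of 39 members, against 50.7% of all genes, with a median of 0.22 against 0.005. All 6 helicase subunits and all 3 RPA subunits were among the positive ones. Of these, Mcm2, Mcm5, Mcm6, Mcm7 and Rpa1 had their lowest value of all 29 libraries in the CD150hi HSC of mouse 1. Without that mouse the median over members was 0.19. Between 5A3+/del CD150neg MPP and CD150lo HSC limma called 0 members against 0.0389% of all genes, and 2 members, Pole2 and Mcm10, had an unadjusted p under 0.05 (4.95% of all genes). Pole2, which did not overlap between these groups (1.95% of all genes did not), differed by -0.68 (SE 0.25, adjusted p = 0.827) and Mcm10 by 0.43 (SE 0.18, adjusted p = 0.907).

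**Figure D3:**
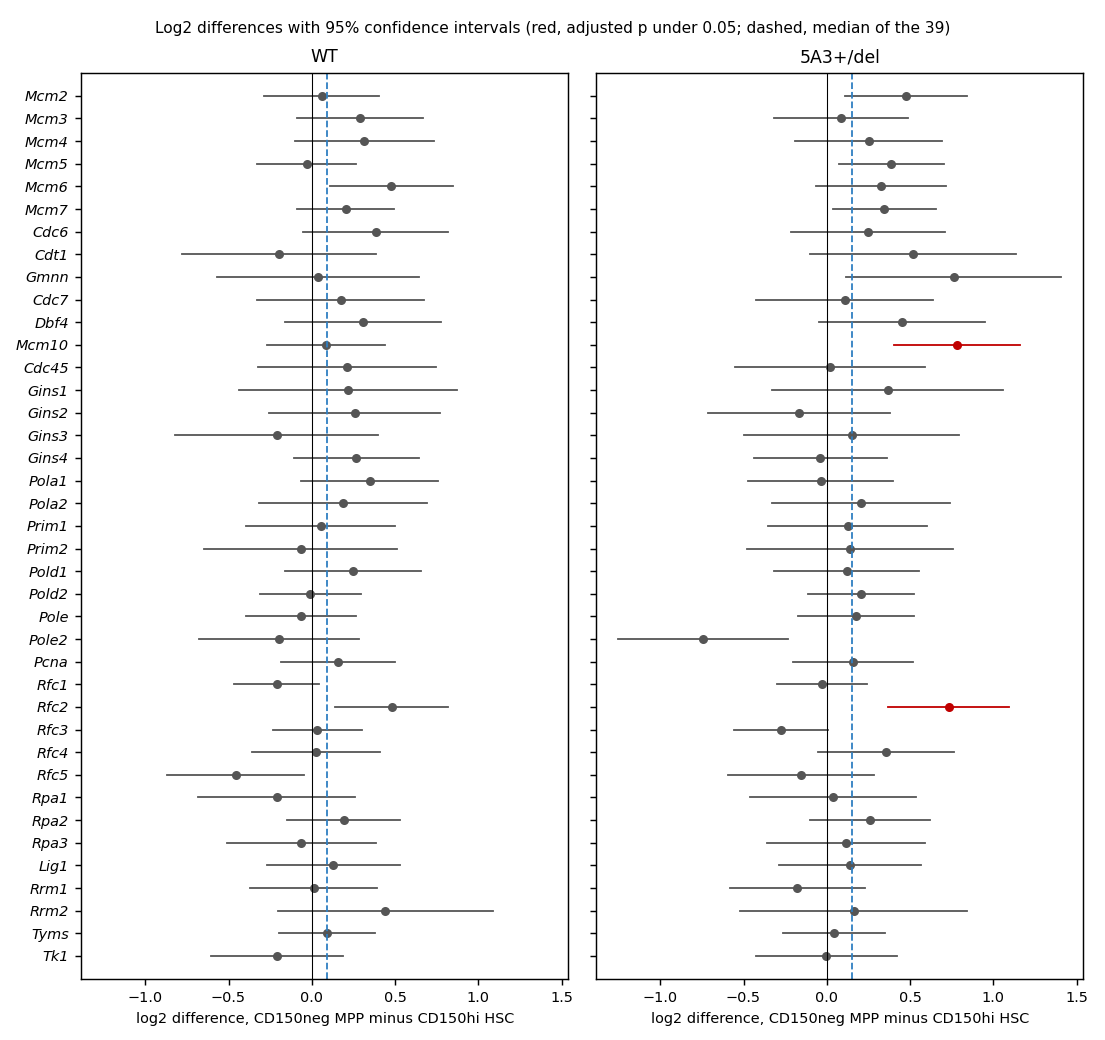
Log2 difference between CD150neg MPP and CD150hi HSC (x axis) with 95% confidence intervals for 39 members in WT (left) and 5A3+/del mice (right); red marks an adjusted p under 0.05 and the dashed line the median. In WT no member is red and the median is 0.09; in 5A3+/del Mcm10 (0.78) and Rfc2 (0.73) are red and the median is 0.15.

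Whether the gaps between populations themselves differed by genotype was tested as an interaction, since a call in 1 genotype and not in the other is no such test. The gap between MPP and CD150hi HSC called 0 of 39 members by limma, with 1 at an unadjusted p under 0.05 (all genes: 0 called, 7.96% unadjusted). That member was Mcm10, which differed between MPP and CD150hi HSC by 0.09 in WT and 0.78 in 5A3+/del mice, a difference of gaps of 0.70 (SE 0.25, adjusted p = 0.454). In WT, Mcm10 was at 0.316, 1.69, 1.22, 0.618 and 1.70 normalized FPKM in CD150hi HSC and 0.527, 1.47, 1.66, 1.03 and 1.27 in MPP, which overlapped. Mcm5 and Cdt1 followed, with differences of 0.42 (SE 0.21, adjusted p = 0.638) and 0.72 (SE 0.41, adjusted p = 0.679). The Cdt1 value was 0.42 without 5A3+/del mouse 1, whose CD150hi HSC had the lowest Cdt1 level of all libraries, and 0.46 without WT mouse 2. The gap between CD150neg MPP and CD150lo HSC also called 0, with 3 members unadjusted (5.0% of all genes): Rrm1 at -0.67, Gins4 at -0.57 and Mcm10 at 0.53 (adjusted p from 0.917 to 0.971). The gap between CD150lo and CD150hi HSC called 0, with 2 unadjusted (3.98% of all genes), Rfc1 at 0.42 and Pold2 at 0.45 (adjusted p = 0.999 for both).

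The deletion removes 1 copy of Orc5 and leaves every member intact, so the next comparison asked whether replication genes outside it differ between genotypes. In CD150hi HSC limma called 0 of 39 members against 0.156% of all genes, and 7 had an unadjusted p under 0.05 against 13.1% of all genes. The members' median was -0.02, with 17 positive and 22 negative, where 50.7% of all genes were positive. In 5 of 6 clamp and loader genes and all 3 RPA genes the difference was negative, without passing the test. Of these, Pcna, Rfc2, Rfc4, Rfc5 and Rpa1 had their lowest value of all 29 libraries in 5A3+/del mouse 1. The signs were not counted without that mouse. Tyms differed by 0.41 (SE 0.14, adjusted p = 0.198), Rfc1 by -0.31 (SE 0.12, adjusted p = 0.275) and Mcm5 by -0.35 (SE 0.14, adjusted p = 0.303). Rfc1 was at 18.1, 20.2, 18.6, 15.2 and 14.2 in WT and 12.9, 14.1, 16.6, 11.7 and 13.1 in 5A3+/del CD150hi HSC, with overlap. Mcm5 was at 13.3, 13.2, 15.6, 9.93 and 10.6 in WT and 6.60, 9.73, 10.5, 9.52 and 12.0 in 5A3+/del CD150hi HSC, again with overlap and with the lowest value in 5A3+/del mouse 1. Without that mouse Mcm5 differed by -0.23 and Tyms by 0.29, and the median over members was 0.03, and without WT mouse 3 it was 0.01. The summed granulocyte and monocyte markers had a median of 52.1 FPKM in this 5A3+/del group and 323 in WT, with overlap, and their part in these values was not tested.

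In CD150lo HSC limma called 0 members against 0.0324% of all genes, with 3 unadjusted (6.87% of all genes): Tyms at 0.40 (SE 0.14, adjusted p = 0.450), Rrm1 at 0.46 (SE 0.19, adjusted p = 0.574) and Pold2 at 0.35 (SE 0.15, adjusted p = 0.626). Rrm1 was at 21.0, 24.8, 23.7, 32.3 and 27.0 normalized FPKM in 5A3+/del CD150lo HSC, set against the WT values given above, and overlapped them. Pold2, the accessory subunit of polymerase delta, was at 9.67, 12.0, 15.1, 8.89 and 9.78 in WT and 12.7, 14.1, 13.2, 15.8 and 14.9 in 5A3+/del CD150lo HSC, where 4 WT values lay below every 5A3+/del value. The median was 0.10, and all 4 genes of deoxynucleotide synthesis were positive. In CD150neg MPP limma called 0 against 0.0454% of all genes, with 2 unadjusted (4.27% of all genes). Mcm10 differed by 0.55 (SE 0.18), its 4 5A3+/del values lying above all 5 WT values (1.51% of all genes did not overlap), and Tyms by 0.36 (SE 0.15). Gins4 differed by -0.31 (SE 0.19), or by -0.11 without 5A3+/del mouse 1 and -0.20 without WT mouse 2. The adjusted p was 1.00 for all 3. The 95% intervals lay within 1 log2 unit of 0 for 36, 38 and 38 members in the 3 populations. Each interval is for 1 gene alone and on the log2(FPKM + 1) scale, which understates changes of low genes. In sign, 11 members were positive in all 3 populations, 6 negative in all 3 and 22 mixed.

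Tyms, which makes thymidylate and is the target of fluorouracil, had the smallest genotype p of the members in both HSC populations and the next to smallest in MPP. It was at 4.99, 5.81, 6.38, 4.57 and 5.43 normalized FPKM in WT and 10.9, 6.90, 6.19, 7.57 and 6.71 in 5A3+/del CD150hi HSC. Among CD150lo HSC it was at 5.89, 5.00, 5.32, 4.91 and 6.14 in WT and 8.42, 8.11, 6.78, 6.91 and 7.24 in 5A3+/del mice. The MPP values were 4.09, 4.94, 7.56, 7.40 and 5.85 in WT, against 6.69, 7.88, 8.16 and 8.47 in 5A3+/del mice. The genotypes did not overlap in CD150lo HSC (1.63% of all genes did not) and overlapped by few values in the other populations. Averaged over its populations each 5A3+/del mouse (6.97 to 8.51) lay above each WT mouse (4.94 to 6.36), a separation shown by 1 member and by 2.58% of all genes.

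A genotype difference averaged over the 3 populations, with the mouse as random block, was added after the data had been seen. Limma called 0 of 39 members against 0.247% of all genes, with 2 at an unadjusted p under 0.05 (9.79% of all genes). Tyms differed by 0.39 (SE 0.09, 95% confidence interval 0.20 to 0.57, adjusted p = 0.0639). The adjusted p ran from 0.0262 to 0.185 over 19 alternatives, under 0.05 with no filter (0.0314), with a filter at a mean of 5 FPKM (0.0377) and with no replicate block (0.0262). Rpa3, the smallest RPA subunit, differed by -0.29 (SE 0.14, adjusted p = 0.504) and Pole2 by 0.28 (SE 0.15, adjusted p = 0.557). The median member was at 0.06.

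Tyms lies on chromosome 5 at 30384742 to 30400157 (mm9), 7.38 Mb from the start of Srpk2. The end of Fbxl13 at 21151423 and the start of Srpk2 at 23009174 stand here for the ends of the deletion. The paper places the loxP sites within these genes, so distances to the deletion are approximate. Of the 40 members 9 lie on chromosome 5, 22.5%, against 6.28% of the genes tested: Mcm7, Cdc7, Dbf4, Pole, Rfc1, Rfc2, Rfc3, Rfc5 and Tyms. Dbf4 is 12.7 Mb from the deletion and the others 42.6 to 129 Mb. Over the 9 the median genotype difference averaged over populations was -0.03, against 0.07 for the other 30 members, and 4 were positive. Most of the 9 lie far from the deletion, so this median cannot speak to nearness to it. The part of position near the deletion in the Tyms values was not tested.

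**Figure D4:**
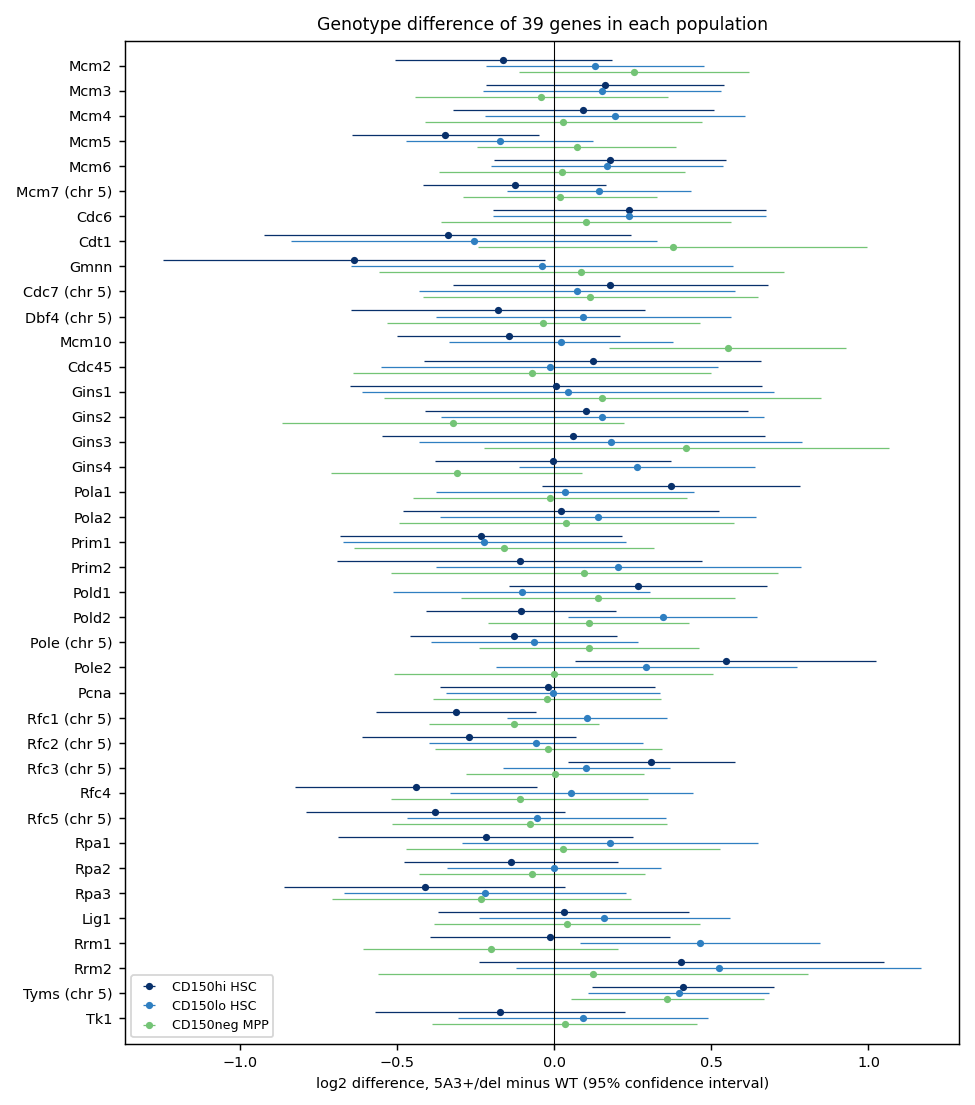
Log2 difference between 5A3+/del and WT (x axis) with 95% confidence intervals for 39 members in CD150hi HSC, CD150lo HSC and CD150neg MPP; members on chromosome 5, which carries the deletion, are marked. Most intervals include 0 and the medians are -0.02, 0.10 and 0.03; Tyms is at 0.41, 0.40 and 0.36.

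The mean log2 value over the 39 tested members gives 1 number per library. In WT it was 3.21 ± 0.18 and 3.32 ± 0.11 in CD150hi and CD150lo HSC and 3.31 ± 0.15 in MPP (SD, n = 5 each). In 5A3+/del mice it was 3.18 ± 0.20 and 3.41 ± 0.16 in the HSC groups (n = 5) and 3.35 ± 0.19 in MPP (n = 4). The range within a group was wider than the gaps between group means. WT mouse 3, the mouse with Xist, had the highest WT mean in all 3 populations at 3.46 to 3.52, and 5A3+/del mouse 1 the lowest of its genotype in all 3 at 2.85 to 3.21. The part of sex and of that library's fewer detected genes in these means was not tested. The WT CD150hi HSC mean without mouse 3 was 3.14 ± 0.06 (n = 4). Mouse 3 was left out of that group only. The WT CD150lo HSC and MPP means above include it, so the value is not to be set against them.

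**Figure D5:**
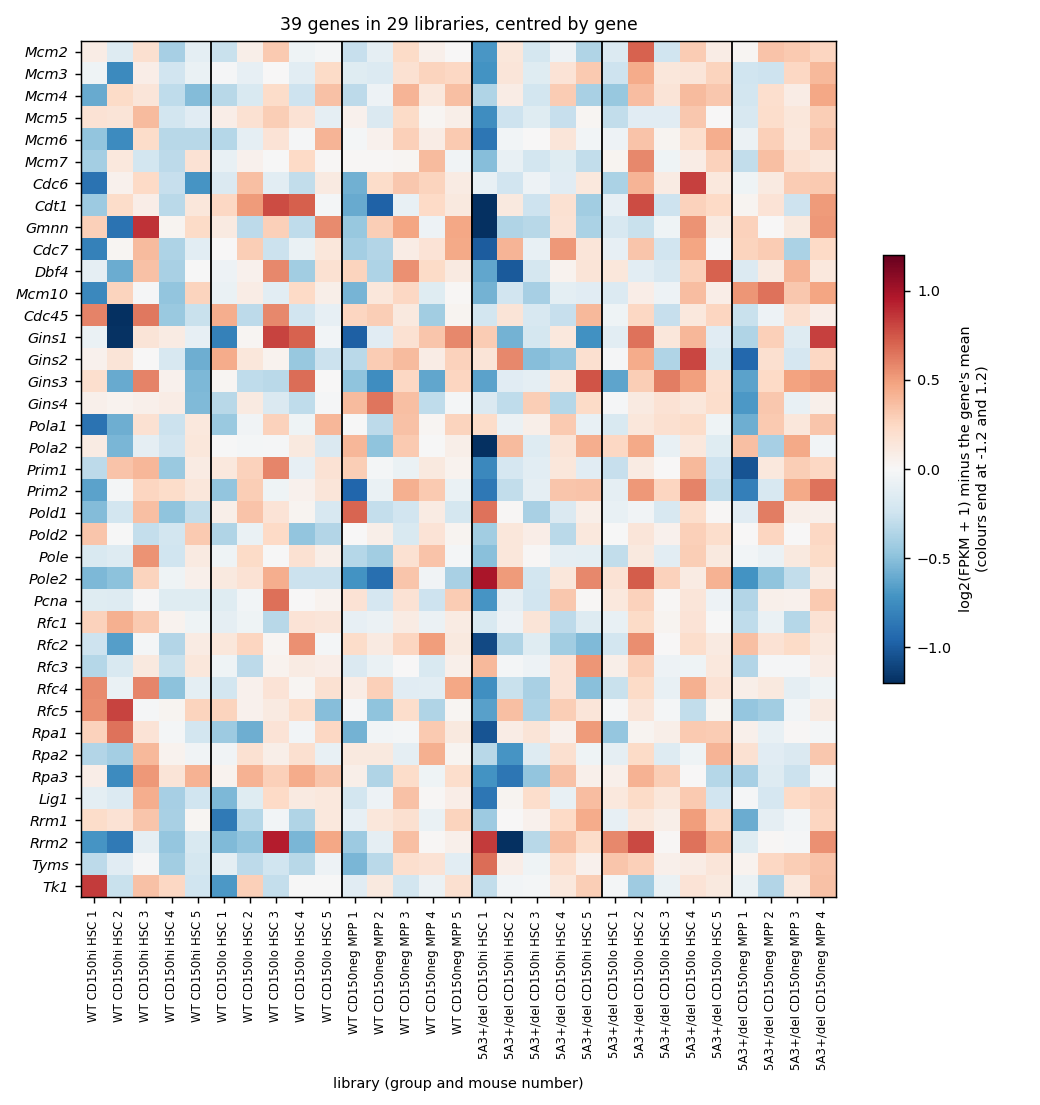
Values of 39 members (rows) in 29 libraries (columns, by group and mouse number) as log2(FPKM + 1) minus the gene's mean, blue below and red above it. The column of mouse 1 in 5A3+/del CD150hi HSC is mostly blue, with 15 members at their lowest, while Pole2 and Tyms are red there. In WT CD150hi HSC mouse 3, 7 members have their highest value. Neither count was made over all genes tested.

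Genes that work beside the members were counted in the same fits, where 10.0% of all genes were called between WT CD150neg MPP and CD150hi HSC and 6.16% in 5A3+/del mice; the counts of these short lists are to be read against those shares. Of 25 tested accessory replication factors 2 passed between WT CD150neg MPP and CD150hi HSC, both higher in MPP: Asf1a, a histone chaperone at forks, by 0.47 (SE 0.13, adjusted p = 0.0181), and Top1, which relieves supercoils, by 0.64 (SE 0.18, adjusted p = 0.0196). Of 15 genes of deoxynucleotide salvage and one-carbon metabolism 1 passed, deoxycytidine kinase Dck, higher by 0.88 (SE 0.25, adjusted p = 0.0235). Of 17 genes of purine and pyrimidine synthesis 2 passed: Impdh1, the entry to guanine nucleotides, was higher by 1.00 (SE 0.18, adjusted p = 2.94e-04) and the purine enzyme Pfas lower, with a difference of -0.50 (SE 0.14, adjusted p = 0.0180). Of 15 mitosis genes Cdc20 passed, higher by 0.87 (SE 0.28, adjusted p = 0.0439), with a list median of 0.34. Of 13 E2F and pocket protein genes limma called 0, with 1 at an unadjusted p under 0.05 and a median of -0.11. Of 10 housekeeping genes 2 passed, Actb and Gapdh, both higher.

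In 5A3+/del mice the same comparison called 0 of 25 accessory factors (0 unadjusted), 0 of 15 salvage genes (0 unadjusted), 0 of 15 mitosis genes (1 unadjusted) and 0 of 13 E2F genes (2 unadjusted) by limma. Of the purine and pyrimidine genes 2 passed there, Impdh1, higher by 0.89 (SE 0.19, adjusted p = 0.00276), and Umps, which makes uridylate, higher by 0.69 (SE 0.15, adjusted p = 0.00282). Between genotypes, limma called 0 genes of any of these 5 lists in any population, with 0 to 4 per list at an unadjusted p under 0.05.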

How the data were processed

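RNA was measured by RNA-Seq in 29 libraries, and per the labels 1 library is 1 sorted population of 1 mouse. The authors deposited 1 table of FPKM values for 30025 genes on mm9; the submitters' processing notes name Bowtie 0.12.2 and HTSeq, and the kit does not mark strand. Depth was recovered from the FPKM steps (98.5 to 99.0% of low values whole within 0.05 fragments) and was 21229623 to 38797889 fragments, with 12 or more behind each tested member. Genes at 1 FPKM or more in at least 4 libraries were kept, and log2(FPKM + 1) was quantile normalized. Fold changes are on that scale, which understates changes of low genes. Limma 3.58.1 (R 4.3.3) fitted 6 group means, with Benjamini-Hochberg adjustment over 15409 genes, and was tested on simulated data. The fit held 12 planned comparisons; the average over populations was added later. Members and gene lists were chosen with earlier results of these data known. Named per comparison were up to 5 members past the threshold or, where fewer than 3 passed, the 3 with the smallest p, together with Mcm2, Pcna and Rrm2, Fen1 as untested, and up to 3 called genes of each other list. Positions and exon overlaps came from GENCODE vM1 (29279 genes matched, 97.5%) and promoters from RefSeq. Libraries of 1 mouse share an animal: over 28 such pairs the correlation of deviations was -0.04 to 0.23 (median 0.08), and the mouse was used as a block in alternatives. Equal WT and 5A3+/del numbers are different mice. Alternatives were other pseudocounts, filters and scalings, a trend, age, fewer groups, blocks and leaving out each mouse.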

Additional observations from a re-analysis of the deposited data

Results flagged for a closer look

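Among 103 groups of 4 or 5 libraries tested with Dixon's criterion, 3 had a library far from the rest of its group, and chance flags about 1 in 20 groups. Gins4, a GINS subunit, was at 10.71 normalized FPKM in WT CD150hi HSC of mouse 5, against 16.4 to 16.9 in the other 4 mice. Pcna, the sliding clamp, was at 58.72 in WT CD150hi HSC of mouse 3, against 53.5 to 53.8 in the others. In WT CD150lo HSC of the same mouse Pcna was at 94.87, against 53.5 to 61.2. Mouse 3 is the WT mouse with Xist, whose part in these values was not tested.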

How the results depend on the processing

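No difference of a member named for its p in a comparison changed direction under any alternative run. These members were picked for a small p, which favours a stable sign. The alternatives covered 65 results and 1350 values in all, which also include the counts of members called and the medians over members. The differences given for Mcm2, Pcna and Rrm2 were not among these results. Medians over members near 0 did change sign when 1 mouse was left out: the genotype median ran from -0.11 to 0.03 in CD150hi HSC, from -0.04 to 0.10 in MPP and from -0.01 to 0.11 averaged over populations, and the median difference of the gaps between MPP and CD150lo HSC from -0.15 to 0.00200. The size for Mcm10 in 5A3+/del MPP minus CD150hi HSC ran from 0.42 to 1.31 with the pseudocount, and its other named differences also moved with that choice. Median ratio scaling turned the CD150hi HSC genotype median to 0.01 as well. The count of members called between WT CD150neg MPP and CD150hi HSC, 0, became 1 with a mean of at least 5 FPKM, with median ratio scaling, with a trend in the prior and with the mouse as a fixed replicate block, and 2 with no quantile normalization. Between 5A3+/del CD150neg MPP and CD150hi HSC the count of 2 became 1 with a mean of at least 5 FPKM, where Mcm10 was not tested, and 1 with only the groups compared. With the mouse as a fixed replicate block it was 3. Between 5A3+/del CD150lo and CD150hi HSC the count of 1 became 0 with only the groups compared. The average over populations, added after seeing the data, went from 0 to 1 with no filter, with a mean of at least 5 FPKM and with no replicate block. Leaving out 1 mouse at a time gave 0 to 2 calls, 0 to 3 calls and 0 to 1 calls for the first 3 of these comparisons and 0 for all others. The cause was not tested. A random mouse block and a block on the shared number changed no count. The lowest depth behind a tested member, 12 fragments for Gmnn, limits the low genes most.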
